A study of Mus musculus with 8 samples.

Results

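The genes described here are Anxa2, S100a4 and Lgals1, 3 of the 9930 named genes on a mouse cDNA microarray. They were chosen by symbol from the platform's annotation, and 4 of 20355 probes carry these names: probe 19186 for Anxa2 (Entrez gene 12306), probe 1588 for S100a4 (Entrez gene 20198), and probes 16738 and 18399 for Lgals1 (Entrez gene 16852). The trio was picked with the ratios of these arrays already known, so the ratios between the lines are given as a description and without a test.

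The study set the mouse embryonic stem (ES) cell lines HM-1 and R1 against each other before and after nocodazole, a drug that takes microtubules apart and holds cells in mitosis. Each of the 8 arrays carried both lines, 1 in Cy5 and the other in Cy3. On 4 arrays both lines were untreated, and on 4 both had been given nocodazole; the labels give no dose or time. The dye of HM-1 was Cy3 on untreated replicates 3 and 4 and on nocodazole replicate 4, and Cy5 elsewhere. Whether replicates are separate cultures is not stated, so p-values measure array-to-array spread that may be technical. The extraction and labelling protocols describe organs and pooled control animals, at odds with the channel labels of ES cells, and growth on feeder cells is not mentioned in the labels. A ratio between 2 ES lines holds no level, so the presence of ES cell markers could not be read from it. In bulk RNA, fewer cells of a type and less RNA per cell cannot be told apart.

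Annexin A2 is a calcium-dependent protein that binds membrane phospholipids and actin. It forms a complex with S100A10 that anchors plasminogen activation at the cell surface. S100A4 is a small calcium sensor that binds non-muscle myosin IIA and is widely used as a fibroblast marker, and galectin 1 is a lectin that binds β-galactosides on laminin, fibronectin and integrins. All are abundant in mesenchymal cells and are often seen in differentiating cells.

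The promoters of Anxa2 and S100a4 are shown, each as the 250 bases before the annotated start site. No promoter sequence for Lgals1 was among those searched. The RefSeq table (GRCm38.p6) matched Anxa2 at chr9:69453433-69453682 and S100a4 at chr3:90603520-90603769, both on the plus strand. Capitals mark the motifs found, namely AP-1 (TGANTCA), the GC box (GGGCGG) and the TATA box (TATAAA), searched on both strands.
Anxa2: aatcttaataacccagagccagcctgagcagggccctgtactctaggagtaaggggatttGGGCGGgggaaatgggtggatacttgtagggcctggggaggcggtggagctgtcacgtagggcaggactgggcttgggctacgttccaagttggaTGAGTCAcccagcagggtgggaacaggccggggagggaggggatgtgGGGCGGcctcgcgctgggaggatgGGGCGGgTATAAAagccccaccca
S100a4: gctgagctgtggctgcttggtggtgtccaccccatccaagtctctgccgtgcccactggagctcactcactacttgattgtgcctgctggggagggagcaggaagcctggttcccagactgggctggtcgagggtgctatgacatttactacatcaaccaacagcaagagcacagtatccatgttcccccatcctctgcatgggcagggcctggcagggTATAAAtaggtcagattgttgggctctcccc
The Anxa2 window held 1 AP-1 match, 95 bases before the start site, 3 GC boxes at 190, 48 and 24 bases, and a TATA box at 17 bases. The S100a4 window held a TATA box 31 bases before the start site and neither of the other motifs. The only motif found in both was therefore the TATA box, which 12.4% of 32851 promoter windows of this length hold. AP-1 stood in 6.75% of those windows and the GC box in 32.7%. The E-box (CANNTG, in 66.2% of windows) and the TEAD site (GGAATG, in 12.6%) were looked for as well and were in neither window. A match says that the letters are there and nothing of a bound factor.

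Arrays held between 17928 and 19445 values. Values below are log2 ratios between the lines with each array's median at 0 and with the sign of the deposited table. The labels do not say which line is the numerator, nor whether the arrays with swapped dyes had been turned, so neither line is called higher. The code deposited for a ratio with a denominator of 0 was positive on each array with HM-1 in Cy5. It was negative on each array with HM-1 in Cy3, and turning an array reverses the sign of its code. Whether the Cy3 arrays had been turned before deposit was not tested. A reading that turns the Cy3 arrays is given for the members' group means, ranks, spread, changes and correlations and for the untreated medians of 3 gene lists (S100, mesenchymal and endoderm genes); the other values are for the deposited signs. Nocodazole replicate 1 stood apart in the signs of the members. On it, 61.6% of the 4063 named genes with a mean below 0 on the other 7 arrays were positive, against 45.8% of the 3425 with a mean at or above 0. Such shares were not computed for any other array. The members' nocodazole means, fitted changes and correlations for the deposited signs are also given without nocodazole replicate 1. The members' dye terms and the limma counts of the gene lists are given only with that array included.

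In untreated cells all 3 genes had negative ratios on all 4 arrays. Anxa2 was at -0.47, -0.41, -0.76 and -0.72 on untreated replicates 1 to 4, a mean of -0.59 ± 0.18 (SD, n = 4), or about 1.5 to 1 between the lines. S100a4 was at -0.36, -0.43, -0.78 and -0.92, a mean of -0.62 ± 0.27 (SD, n = 4), or about 1.54 to 1. Lgals1, averaged over its probes, was at -0.32, -0.30, -0.51 and -0.38, a mean of -0.38 ± 0.09 (SD, n = 4), or about 1.30 to 1. For each gene the values on replicates 3 and 4, where HM-1 carried Cy3, lay below those on replicates 1 and 2. Among 7488 named genes with a value on all arrays, S100a4 had the 155th lowest untreated mean, Anxa2 the 185th and Lgals1 the 457th. In that set 8.09% of genes were negative on all untreated arrays, and the median of the untreated means was -0.01. With the Cy3 arrays turned, S100a4 had the 831st highest untreated mean, Anxa2 the 1569th and Lgals1 the 2883rd, and 9.43% of genes were negative on all untreated arrays.

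**Figure D1:**
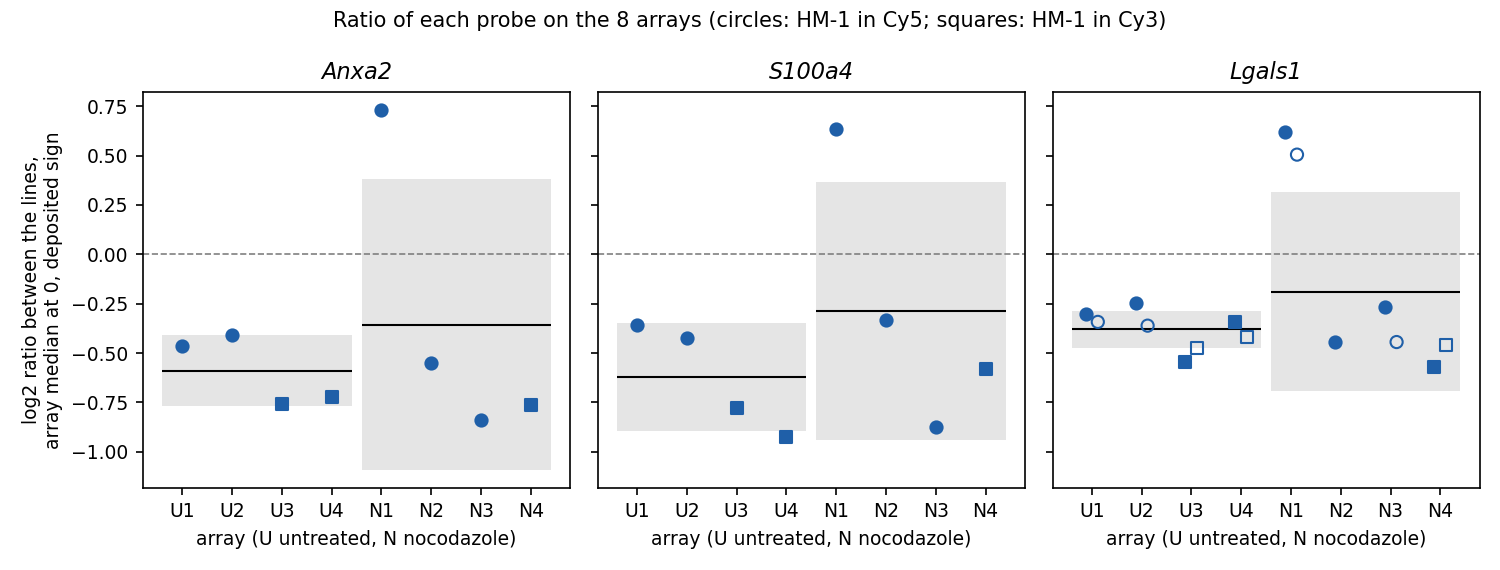
Log2 ratio between the lines (vertical axis, array median at 0) of each probe of Anxa2, S100a4 and Lgals1 on untreated arrays U1 to U4 and nocodazole arrays N1 to N4 (horizontal axis). Circles are arrays with HM-1 in Cy5 and squares arrays with HM-1 in Cy3, filled and open symbols in the Lgals1 panel are probes 16738 and 18399, and lines with grey bands are the gene's group mean ± SD (n = 4); every value is below 0 except those on N1.

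With the deposited signs the spread of Lgals1 between untreated arrays was small. Its SD of 0.09 was below that of all but 5.93% of the named genes, whose median SD was 0.29. The SD of Anxa2 stood at the 24.9th percentile and that of S100a4 at the 46.1st. With the Cy3 arrays turned, the SDs were 0.44 for Lgals1 (68.1st percentile), 0.68 for Anxa2 (82.7th) and 0.72 for S100a4 (84.3rd). The Lgals1 probes differed by at most 0.175 on the 7 arrays where both had a value, with a median difference of 0.11. Probe 16738 alone was at -0.36 ± 0.13 and probe 18399 at -0.40 ± 0.06 (SD, n = 4 each, untreated). Nocodazole replicate 2 had a value for probe 16738 only, so the gene mean rests on that probe there. Of the 31 values of the 4 probes, 2 matched the quotient of whole numbers no larger than 10 (within 0.0015 on the log2 scale), 1 of Anxa2 on untreated replicate 1 and 1 of S100a4 on nocodazole replicate 2. Such values made up 10.98% to 19.3% of a whole array. Small whole numbers come from dim spots, but no intensities were used here, so the brightness of these spots is unknown.

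With nocodazole the genes kept negative ratios on 3 of the 4 arrays and were positive on replicate 1. Anxa2 was at 0.73 on replicate 1 and at -0.55, -0.84 and -0.765 on replicates 2 to 4. Its mean was -0.36 ± 0.74 over all (SD, n = 4) and -0.72 ± 0.15 without replicate 1 (SD, n = 3). S100a4 was at 0.63 on replicate 1 and at -0.33, -0.88 and -0.58 on the others, with means of -0.29 ± 0.65 (SD, n = 4) and -0.60 ± 0.27 (SD, n = 3). Lgals1 was at 0.56 on replicate 1 and at -0.445, -0.36 and -0.52 on the others, with means of -0.19 ± 0.51 (SD, n = 4) and -0.44 ± 0.08 (SD, n = 3). The value on replicate 1 was about as far above 0 as the mean of the other 7 arrays was below it for Anxa2 (-0.64 ± 0.17) and S100a4 (-0.61 ± 0.25), and farther for Lgals1 (-0.41 ± 0.09; SD, n = 7 each). Of the 7488 named genes, 3.15% were negative on those 7 arrays and positive on replicate 1, and the 3 genes are among them. Since this pattern was known when they were picked, nothing is read from that share.

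**Figure D2:**
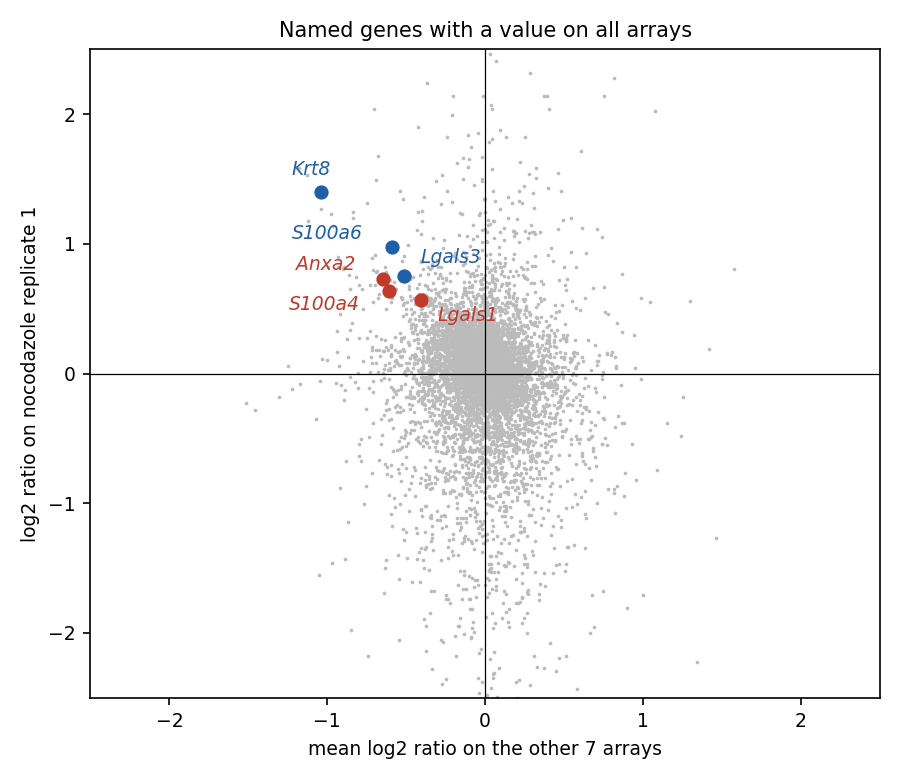
Mean log2 ratio on 7 arrays, nocodazole replicate 1 left out (horizontal axis) against the log2 ratio on replicate 1 (vertical axis) for 7488 named genes (grey), of which 43 lie outside the plotted range of 2.5 either way. Anxa2, S100a4 and Lgals1 (red) and S100a6, Lgals3 and Krt8 (blue) lie in the upper left, below 0 on the 7 arrays and above 0 on replicate 1.

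The ratio between the lines did not pass the test of a change with nocodazole for any of the genes. The fitted change, nocodazole minus untreated with a term for the dye, was 0.13 for Anxa2 (SE 0.36, 95% interval -0.73 to 0.99), 0.23 for S100a4 (SE 0.33, -0.57 to 1.02) and 0.13 for Lgals1 (SE 0.26, -0.50 to 0.75). In limma their adjusted p was 0.997, over 14015 features of which 0 (0%) passed; 467 had an unadjusted p under 0.05. These intervals do not show that the ratios are alike in both conditions. Without nocodazole replicate 1 the fitted changes were -0.16 (SE 0.14) for Anxa2, -0.02 (SE 0.20) for S100a4 and -0.08 (SE 0.12) for Lgals1, with adjusted p between 0.985 and 0.994, so that 1 array sets the sign. With the Cy3 arrays turned they were 0.15 (SE 0.36), 0.03 (SE 0.34) and 0.18 (SE 0.25), with adjusted p between 0.952 and 0.994. Treated and untreated cells of a line never share an array, so these values are changes of the ratio between the lines and hold no effect of the drug within a line.

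**Figure D3:**
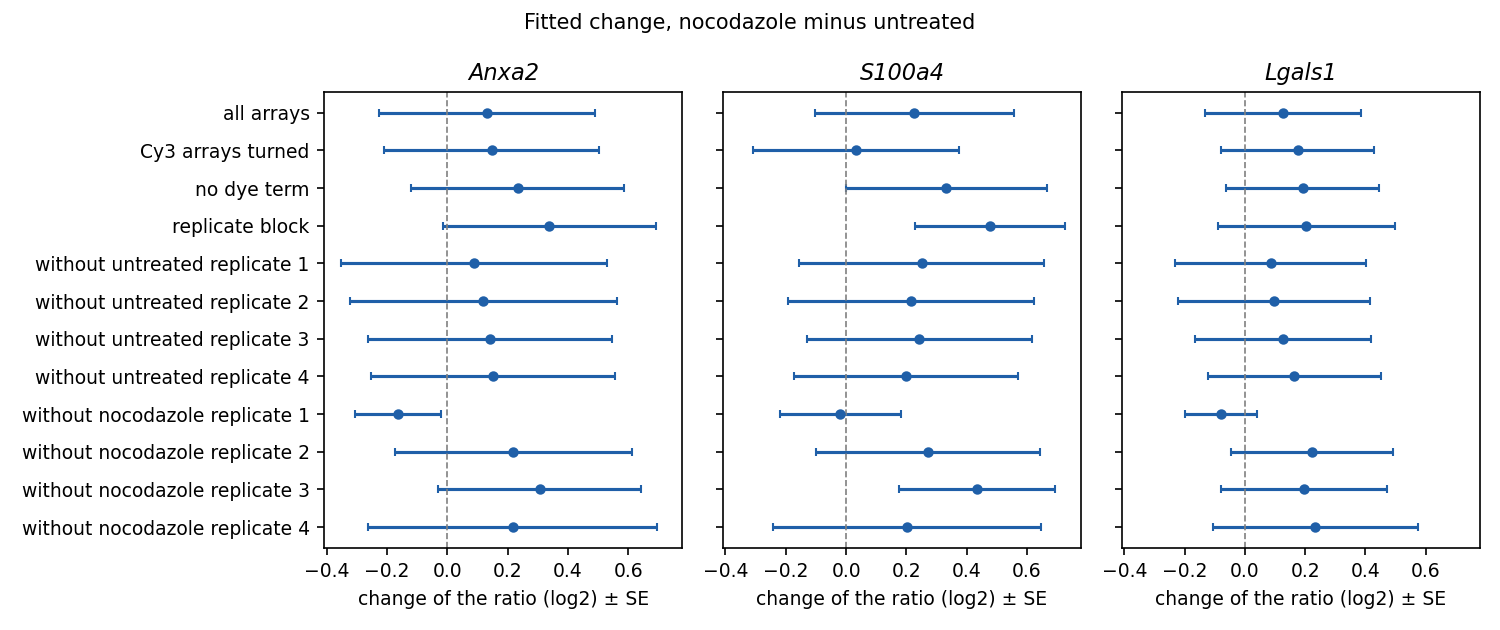
Fitted change of the ratio between the lines, nocodazole minus untreated (horizontal axis, log2, ± SE from limma), for Anxa2, S100a4 and Lgals1 with all 8 arrays and under other fits (vertical axis). The estimates are above 0 in each fit shown except the one without nocodazole replicate 1, where they lie between -0.16 and -0.02.

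On average over 7 arrays the ratios lay farther below 0 where HM-1 carried Cy3, but no dye term passed limma. On the 7 arrays other than nocodazole replicate 1, Anxa2 averaged -0.57 where HM-1 carried Cy5 and -0.75 where it carried Cy3, S100a4 -0.50 and -0.76, and Lgals1 -0.36 and -0.47. Nocodazole replicate 3, with HM-1 in Cy5, had the lowest Anxa2 value of all arrays, so the values under the dye labels overlapped. The dye term of the fit over 8 arrays was 0.41 (SE 0.37) for Anxa2, 0.43 (SE 0.34) for S100a4 and 0.26 (SE 0.27) for Lgals1, with adjusted p in limma of 0.766, 0.733 and 0.788; 0 of 14015 features (0%) passed, and 1284 had an unadjusted p under 0.05. That fit includes nocodazole replicate 1, where HM-1 carried Cy5 and each gene was positive, and the dye terms without it are not given. If the Cy3 arrays are turned, each gene is negative on untreated replicates 1 and 2 and positive on 3 and 4. The untreated means are then 0.15 ± 0.68 for Anxa2, 0.23 ± 0.72 for S100a4 and 0.07 ± 0.44 for Lgals1 (SD, n = 4 each), all smaller than their spread. The uniform sign in untreated cells thus holds for the deposited signs alone.

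The genes were alike in sign on all 8 arrays and differed in size. Anxa2 lay farther from 0 than Lgals1 on 8 of 8 arrays, with an untreated difference of -0.21 ± 0.11 (SD, n = 4), and S100a4 lay farther than Lgals1 on 7 of 8. Anxa2 and S100a4 differed by at most 0.22 on an array, and each was the farther from 0 on 4 arrays. Over the 8 arrays Pearson's r was 0.961 between Anxa2 and S100a4, 0.966 between Anxa2 and Lgals1, and 0.881 between S100a4 and Lgals1 (Spearman's rho 0.738, 0.738 and 0.429). Without nocodazole replicate 1 the r over 7 arrays were 0.826, 0.56 and 0.172 (rho 0.607, 0.607 and 0.143). With the 2 arrays farthest from the first gene's median left out, the r over 6 arrays were 0.841, 0.358 and 0.289. For the deposited signs the high correlations with Lgals1 therefore rest on that array. With the Cy3 arrays turned, the r over 8 arrays were 0.981, 0.979 and 0.932 (rho 0.691, 0.905 and 0.619), and those over 7 arrays 0.98, 0.979 and 0.932. The genes shared a sign on each array, so turning some arrays by itself spreads their values together to both sides of 0. That raises r, for S100a4 and Lgals1 over 7 arrays from 0.172 to 0.932, and no likeness is read from the turned values. All these correlations are descriptions over arrays that share dyes and probes, and no p is given for genes picked for their pattern.

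Over 8 arrays the named genes most like Anxa2 were Krt8, an epithelial keratin (r = 0.995), the chromatin ATPase Ruvbl2 (0.98), the collagen chaperone Serpinh1 (0.971), the small heat shock protein Cryab (0.97) and the neuronal filament Prph (0.969). Lgals1 stood 12th and S100a4 16th of 7487. Krt8 was at -0.98 ± 0.34 untreated (SD, n = 4) and 1.40 on nocodazole replicate 1. Most like S100a4 were Ruvbl2 (0.982), the nucleolar protein Tcof1 (0.979), Krt8 (0.967), the copper chaperone Atox1 (0.963) and, 5th, Anxa2. Most like Lgals1 were Ston2, a protein of endocytosis (0.993), S100a6 (0.992), Serpinh1 (0.987), the metalloproteinase inhibitor Timp2 (0.98) and Tceal3 (0.979). An r above 0.9 was reached by 96 genes for Anxa2, 74 for S100a4 and 113 for Lgals1.

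These likenesses came largely from nocodazole replicate 1. Without it, 22, 44 and 26 genes had an r above 0.9, and of the 50 genes most like each, 3 were shared between both sets of arrays for Anxa2, 8 for S100a4 and 5 for Lgals1. The leading genes were then others: Hspb6, Ctrl, Egln3, Ndufv3 and Zbtb7a for Anxa2 (r = 0.974 to 0.952), Bmf, Fis1, Ptcd2, Rrn3 and Fabp3 for S100a4 (0.996 to 0.962), and Vezf1, Atp1b1, Sowaha, Extl1 and Klk1b16 for Lgals1 (0.984 to 0.946). The untreated means of these 15 genes lay between -0.28 and 0.20. S100a6 (r = 0.856) and Timp2 (0.836) stayed near Lgals1, at ranks 55 and 82 of 7487.

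In the S100 family, several small calcium sensors other than S100a4 shared its signs on all arrays. Of 10 such genes with a value on all arrays, 5 were negative on the 7 arrays and positive on nocodazole replicate 1 (S100a1, S100a6, S100a11, S100a13 and S100g), against 3.15% of all named genes. The lists described from here on were chosen with this pattern known, so nothing is read from their counts beside that share. The family's median ratio was -0.35 untreated, against -0.01 over all genes, and 0.09 against 0.01 with the Cy3 arrays turned. S100a6, a calcium sensor of proliferating fibroblasts, was at -0.48, -0.42, -0.88 and -0.62 untreated, at 0.975 on nocodazole replicate 1 and between -0.66 and -0.50 on the others. Its untreated mean of -0.60 ± 0.20 was close to that of S100a4. S100a11, which binds annexin A1, was at -0.39 ± 0.25, S100a1, a regulator of calcium cycling in muscle, at -0.43 ± 0.16, S100g, an intestinal calcium buffer, at -0.43 ± 0.17, and S100a13, which takes part in the release of growth factors, at -0.22 ± 0.13 (SD, n = 4 each, untreated).

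By the RefSeq gene order S100a4 lies on chromosome 3 beside S100a5 and S100a6. S100a5, the nearer of them on that side, did not share the pattern: it was at -0.08, -0.36, 0.19 and 0.58 untreated and 0.04 on nocodazole replicate 1. It was singled out after its values were seen. S100a3, on the other side, had a value on 1 untreated array. None of the 11 tested family genes other than S100a4 passed limma in the untreated ratio, the nocodazole ratio or the change, where 0 of 14015 features (0%) passed in any of these. At an unadjusted p under 0.05 0 S100 genes were found in these comparisons. The shares over all features at that level were 2.98% negative and 3.35% positive for the untreated ratio, 1.11% and 1.8% for the nocodazole ratio, and 1.69% and 1.64% for the change.

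**Figure D4:**
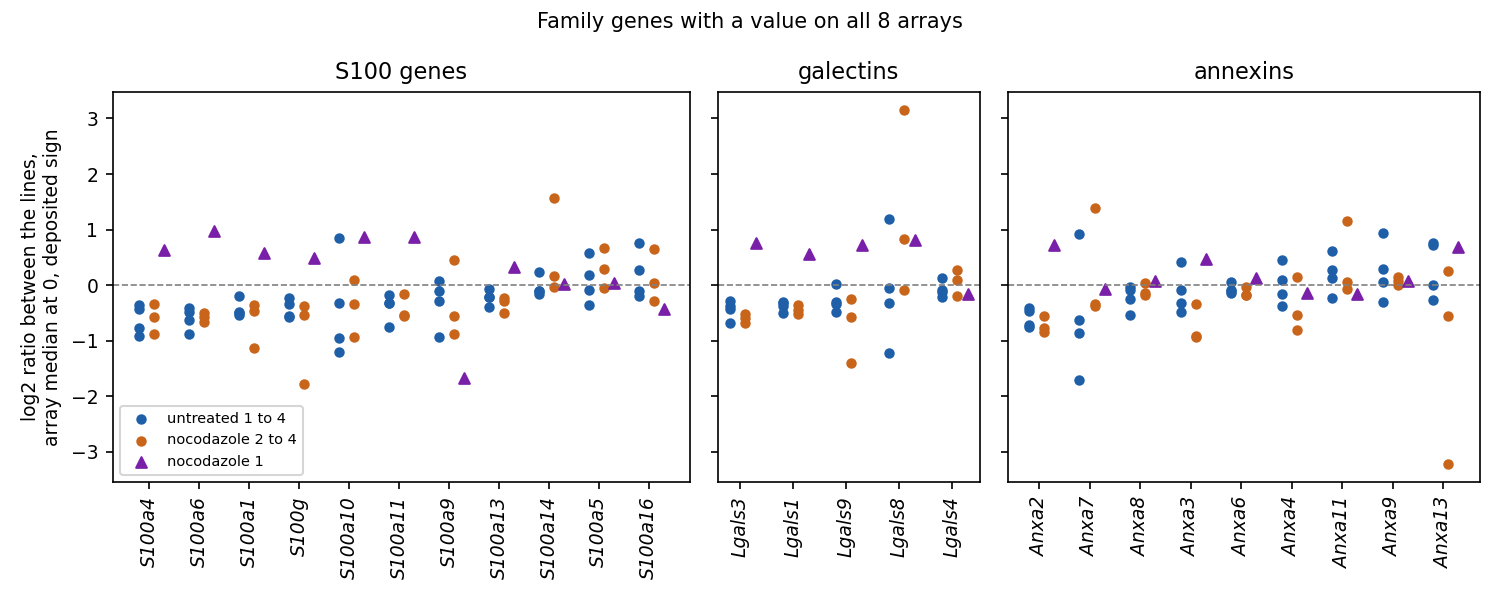
Log2 ratio between the lines (vertical axis, array median at 0) of the S100 genes, galectins and annexins with a value on all 8 arrays, ordered by untreated mean (horizontal axis). Points are single arrays, untreated in blue, nocodazole replicates 2 to 4 in orange and nocodazole replicate 1 as purple triangles; S100a4, S100a6, S100a1, S100g, S100a11, S100a13, Lgals1, Lgals3 and Anxa2 have the triangle above 0 and the other 7 points below 0.

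Among the galectins, Lgals3 had the signs of Lgals1 and values of like size. Its r with Lgals1 was 0.956 over 8 arrays (rank 24 of 7487) and 0.395 without nocodazole replicate 1 (rank 1579). Galectin 3, a lectin of macrophages and epithelia, was at -0.29, -0.43, -0.38 and -0.68 untreated, at 0.75 on nocodazole replicate 1 and between -0.68 and -0.52 on the others. Its untreated mean was -0.45 ± 0.17 (SD, n = 4). Lgals9, a galectin of immune cells, was at -0.28 ± 0.21 untreated and 0.73 on nocodazole replicate 1, with untreated replicate 3 at 0.02. Lgals4, a galectin of the gut, lay near 0 at -0.08 ± 0.14, and Lgals8 varied widely at -0.10 ± 0.99 (SD, n = 4 each). Of the 4 galectins other than Lgals1 with a value on all arrays, 1 had the pattern of signs (3.15% of all named genes), and none of the 4 passed limma in any comparison. At an unadjusted p under 0.05, 1 was positive with nocodazole, where 1.8% of all features were.

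In untreated cells the 8 other annexins with a value on all arrays lay near 0 or varied widely. Of these 8, 0 had the pattern of signs and 1 was negative on all untreated arrays, and their median untreated ratio was -0.03. Anxa6, a membrane-binding annexin, was at -0.07 ± 0.09, Anxa7 at -0.57 ± 1.10 and Anxa13 at 0.30 ± 0.52 (SD, n = 4 each, untreated). Anxa3 and Anxa8 were named after their values were seen. Anxa3 was at -0.12 ± 0.40 untreated (SD, n = 4), with replicate 3 at 0.42. It was at 0.47 on nocodazole replicate 1 and at -0.73 ± 0.33 on replicates 2 to 4 (SD, n = 3). Anxa8, negative on all untreated arrays, was at -0.23 ± 0.23 there (SD, n = 4) and at 0.08 and 0.04 on nocodazole replicates 1 and 3. Anxa1 lacked a value on some arrays and had the signs of Anxa2 on each array with a value. It was at -0.50, -2.18 and -0.88 on untreated replicates 1 to 3, a mean of -1.19 ± 0.88 (SD, n = 3). With nocodazole it was at 0.24 on replicate 1 and at -1.39 on replicate 2. Anxa5, the annexin used to stain dying cells, had values on 2 untreated arrays, of 1.86 and -2.22. None of the 8 tested passed limma in any comparison, and 1 was negative at an unadjusted p under 0.05 in untreated cells, where 2.98% of all features were.

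Of the partners of annexin A2, Cd44 had its signs on each array with a value, and S100a10 and Plau did not. S100a10, the light chain of the annexin A2 complex, was at -0.33, 0.85, -0.95 and -1.20 untreated and at 0.87, -0.94, -0.35 and 0.09 on nocodazole replicates 1 to 4. Its untreated mean was -0.41 ± 0.92 (SD, n = 4), so its spread exceeded its mean. Plau, the urokinase that activates plasminogen, was at 0.12 ± 0.09 untreated, and among the other genes of the list with a value on all 8 arrays the largest means were those of the replication clamp Pcna at 0.27 ± 0.75 and the plasmin inhibitor Serpinf2 at 0.25 ± 0.48 (SD, n = 4 each). Cd44, a hyaluronan receptor, had no value on untreated replicate 2; it was at -0.41 ± 0.14 on the other three (SD, n = 3), at 0.59 on nocodazole replicate 1 and at -0.52 ± 0.08 on replicates 2 to 4 (SD, n = 3). Of the list of partners and plasminogen genes, 12 of 23 had a probe. None of the 12 passed limma in any comparison; at an unadjusted p under 0.05, 1 was negative in untreated cells and 1 positive in the change (2.98% and 1.64% of all features), and 0 of the 9 with a value on all arrays had the pattern of signs, and the median untreated ratio of these 9 was -0.04.

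Partners and targets of S100A4 and galectin 1 showed the pattern in a few genes. Of 18 S100A4 partners and targets on all arrays, 3 had it (3.15% of all named genes), namely Timp2 and the matrix metalloproteinases Mmp3 and Mmp13. Timp2 was at -0.54 ± 0.19, Mmp3 at -0.23 ± 0.10 and Mmp13 at -0.19 ± 0.12 (SD, n = 4 each, untreated). Myh9, the heavy chain of the myosin that S100A4 binds, had values on 2 untreated arrays, of -0.54 and -0.96. Ager, a receptor for S100 proteins, was at 0.475 ± 0.95 (SD, n = 4, untreated). Of 14 galectin 1 partners, 2 had it (3.15% of all named genes), the integrin subunit Itgb1 at -0.24 ± 0.12 and the surface glycoprotein Thy1 at -0.13 ± 0.06 (SD, n = 4 each, untreated). The leukocyte sialoprotein Spn at 0.38 ± 1.41 and the laminin chain Lamc1 at -0.33 ± 0.57 had larger means and wide spreads (SD, n = 4 each, untreated). The median untreated ratios of these lists were 0.08 and -0.02, and none of their 20 and 15 tested genes passed limma in any comparison. At an unadjusted p under 0.05, 0 of the 20 were found, and of the 15 galectin 1 partners 2 were positive with nocodazole and 1 in the change, against 1.8% and 1.64% of all features.

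Of 22 mesenchymal genes of the cytoskeleton and calcium binding on all arrays, 7 had the pattern, against 3.15% of all named genes: Tagln2, Myl6, Vcl, Ccn2, Thbs1, Lasp1 and Pdlim7. The list's median was -0.19 untreated, -0.23 on nocodazole replicates 2 to 4 and 0.23 on replicate 1; with the Cy3 arrays turned the untreated median was 0.05. Thbs1, an adhesive matrix glycoprotein, had nearly the same value on each untreated array, at -0.61, -0.70, -0.55 and -0.59. Pdlim7, a scaffold on actin filaments, was at -0.67 ± 0.48 (SD, n = 4, untreated). Vim, the mesenchymal intermediate filament, was at 0.02 on untreated replicate 1 and between -0.48 and -0.15 on the others. Tpm1, an actin-binding tropomyosin, was at 0.17 ± 0.86 (SD, n = 4, untreated). Of the 28 tested, 0 passed limma in any comparison, and at an unadjusted p under 0.05 3 were negative and 1 positive in untreated cells (2.98% and 3.35% of all features), 1 negative and 1 positive with nocodazole (1.11% and 1.8%), and 2 negative in the change (1.69%).

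Markers of fibroblasts, the cells of feeder layers, lay near 0 as a list. Over 20 markers other than S100a4 on all arrays, the median was between -0.14 and 0.02 on untreated arrays, 0.07 on nocodazole replicate 1 and between -0.21 and 0.004 on the others. The pattern was seen in 4 of them, against 3.15% of all named genes: Thy1, Fstl1, Timp2 and Sparc. Fibroblast collagens were wide or near 0, with Col1a1 at -0.31 ± 2.82 (SD, n = 3) and Col1a2 at -0.14 ± 0.18 (SD, n = 4, untreated). Sparc had the largest absolute untreated mean among those on all arrays, at -0.80 ± 0.15 (SD, n = 4). It was at 1.23 on nocodazole replicate 1 and at -1.20 ± 0.07 on replicates 2 to 4 (SD, n = 3). The crosslinking enzyme Lox, next in size, was at 0.55 ± 0.45 (SD, n = 4, untreated). Of the 25 tested, 0 passed limma in any comparison, and 1 was positive in untreated cells at an unadjusted p under 0.05 (3.35% of all features). Of 18 endoderm markers 8 had the pattern, against 3.15% of all named genes: Dab2, Apoe, Sparc, Serpinh1, Pth1r, Ctsl, Ctsh and Krt8. The median of the 18 markers was between -0.60 and -0.16 on untreated arrays and 0.67 on nocodazole replicate 1. On nocodazole replicates 2 to 4 it was between -0.65 and -0.51. With the Cy3 arrays turned, the median of their untreated means was 0.03 in place of -0.55. Of the 19 tested 0 passed limma, and 5 were negative in untreated cells at an unadjusted p under 0.05 (2.98% of all features). Dab2, an adaptor of primitive endoderm, was at -1.03 ± 0.13 (SD, n = 4, untreated), the largest absolute mean among those on all arrays. Other endoderm markers, named after their values were seen, had untreated means above 0. They were Gata6 at 0.07 ± 0.40, Hnf4a at 0.28 ± 0.56, Col4a1 at 0.14 ± 0.06 and Amn at 0.06 ± 1.47 (SD, n = 4 each). Of 9 markers of naive pluripotency 0 had the pattern, and their median was between 0.02 and 0.34 on untreated arrays, -0.08 on nocodazole replicate 1 and between 0.03 and 0.08 on the others. Sall4 (-0.18) and Zfp42 (-0.02), named after their values were seen, had untreated means below 0. Of the 11 tested 0 passed limma, and at an unadjusted p under 0.05 2 were positive in untreated cells and 1 each with nocodazole and in the change (3.35%, 1.8% and 1.64% of all features). The largest untreated means among those on all arrays were those of Gdf3, a ligand of the TGF-β family, at 1.501 ± 2.58, and of Klf2, a Krüppel-like factor of ground-state cells, at 0.68 ± 0.22 (SD, n = 4 each). Of 12 trophectoderm markers 4 had a probe, and of the 2 on all arrays Krt8 had the pattern and Ascl2 (-0.05 ± 0.24; SD, n = 4, untreated) did not. The part of these cell types in the ratios of Anxa2, S100a4 and Lgals1 was not tested.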

How the data were processed

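Each value is a log2 ratio between the 2 channels of an array, as deposited by the authors; software, background correction and direction are not stated in the sources used here, and the scale was inferred from the values themselves. Array medians as deposited lay between -0.19 and 0.12. A ratio with a denominator of 0 appears to be coded as 100000. On the log2 scale the code was positive with HM-1 in Cy5 and negative, as for an inverted ratio, with HM-1 in Cy3. These coded values, 74 to 203 per array, were left out, and each array was centred on its median. Symbols came from the platform's annotation (1 symbol for 14030 probes, several for 5, none for 6320), updated by gene ID through RefSeq for 13994. Probes of a gene were averaged.

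Features measured on 3 or more arrays in both groups (14015 of 16255) were fitted with limma 3.58.1 in R 4.3.3 (lmFit, eBayes; a term for each group and for the dye label), with two-sided p-values adjusted by Benjamini-Hochberg and a threshold of 0.05. The fit was tried on simulated data with independent noise of capped SD, no dye effect and no deviating array. That trial does not cover an array like nocodazole replicate 1. The number of arrays limits the precision. The members and lists were chosen with earlier results of these data known. Named genes are the members, a set of relatives and partners, the 2 other genes of largest absolute untreated mean in each list among those with a value on all arrays, those with the pattern of signs (a count chosen with that pattern known), and the 5 most like each member. A few other genes are named as well, among them those marked as named after their values were seen. Among the relatives and partners, Plat, Plaur and Tagln had no probe of that name, and Lgals3bp had a value on 1 untreated array.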

Additional observations from a re-analysis of the deposited data

Results flagged for a closer look

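Of 21 groups of 4 arrays examined for the trio and 8 related genes, chosen after their values were seen, 5 had 1 array far from the rest (Dixon's ratio above its 95% critical value), where chance gives about 1 in 20 groups. Since the genes were chosen with the pattern known, the count is not read against that rate. On nocodazole replicate 1, Lgals1 was at 0.56 against -0.52 to -0.36 on the others, S100a6 at 0.975 against -0.66 to -0.50, Lgals3 at 0.75 against -0.68 to -0.52 and Cd44 at 0.59 against -0.60 to -0.44. S100a1 was at -0.20 on untreated replicate 1 against -0.535 to -0.49 on the other untreated arrays. The first 4 share 1 array and are not independent of each other. Anxa2 and S100a4 had the same sign change on nocodazole replicate 1, with ratios that did not pass Dixon's value.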

How the results depend on the processing

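With the Cy3 arrays turned the group means changed sign: untreated 0.15 for Anxa2, 0.23 for S100a4 and 0.0665 for Lgals1, and nocodazole 0.0265, 0.001 and 0.0696; the turning itself does this. These means kept their sign under no centring, scaled arrays, coded values kept, the median over probes and single arrays left out. Leaving out single arrays gave changes from -0.16 to 0.31 for Anxa2, -0.0187 to 0.43 for S100a4 and -0.0804 to 0.23 for Lgals1, negative only without nocodazole replicate 1. The count of features passing limma stayed at 0, except 1 with nocodazole among features measured on all arrays, 0 to 1 for the change and 0 to 2 for the dye term with single arrays left out (1 and 2 without untreated replicate 1), and 1 for the dye term with array weights; the cause was not tested. With a replicate block the changes were 0.34, 0.48 and 0.20 (adjusted p = 0.966), 0 features passed, and 581 against 467 had an unadjusted p under 0.05 for the change; same-numbered arrays share only a number, with r of their deviations at 0.13, 0.02, -0.05 and 0.09. The brightness of spots is unknown, which limits what a single ratio can show.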
